A study of Mus musculus with 6 samples.

Results

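Transcripts of glycolysis, the pentose phosphate pathway and the TCA cycle were compared between activated CD4 T cells lacking miR-155 and wild-type cells. The 37 genes were a named list of 18 glycolysis, 14 TCA cycle and 5 pentose phosphate genes, of 12394 genes with a probe set of their own on the array. Of the 37, 34 had such a probe set, with 70 probe sets in all. The expression of Gpi1, Eno1 and G6pdx, which encode glucose-6-phosphate isomerase, enolase 1 and glucose-6-phosphate dehydrogenase, was not analysed here. The 3 KO arrays hold cells of C57BL/6 mice labelled miR-155 KO, and the 3 WT arrays hold cells of wild-type C57BL/6 mice. In both genotypes CD4 T cells were taken from spleen and lymph nodes with magnetic beads and activated for 3 days through CD3 and CD28 (antibodies at 1 µg/mL) in the presence of interleukin 2 (20 U/mL). The labels give no age, nor the deleted stretch of the locus or whether other cells of the mice also lack it, and the series text assigns each array to its own mouse.

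Resting T cells draw most of their energy from mitochondrial respiration. After activation they take up far more glucose and turn much of it into lactate, a switch driven by Myc, mTOR and the oxygen-responsive factor HIF-1. The pentose phosphate pathway branches from the top of glycolysis and yields NADPH and the ribose of nucleotides, and the TCA cycle burns acetyl groups and supplies carbon for lipids and amino acids. MiR-155 is a microRNA induced in activated T cells, and it pairs with its targets mainly through a seed near its 5′ end. Its mature strand, as RefSeq gives it at chr16:84714143-84714165 of GRCm38.p6, plus strand, is printed with the seed (bases 2 to 8) in capitals:
mmu-miR-155-5p: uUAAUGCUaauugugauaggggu

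All values are log2 expression on the scale of the authors' deposited table, and all differences are KO minus WT. Mir155hg, the transcript that carries miR-155, had values of 3.51, 3.89 and 4.45 in KO cells, against 7.69, 6.59 and 8.21 in WT cells, so each array lay on the side of its label. The difference of -3.55 had a limma adjusted p of 0.545, the smallest of all genes tested but not held by this gene alone. Its unadjusted limma p was 1.2e-04, where the smallest of all genes tested was 8.0e-05. All 9 measured CD4 T cell markers passed the filter on dim genes, and Cd4 itself lay between 8.83 and 9.25. Of these 9, 8 were higher in KO, with a median difference of 0.23 with and without KO replicate 1, and Cd28 (0.67) and Zbtb7b (0.48) had an unadjusted limma p under 0.05. Their mean deviation was lowest on WT replicate 1 (-0.40). Among markers of other cells, 4 of 5 measured B cell, 2 of 4 NK cell and 3 of 6 macrophage markers passed that filter. So did 2 of 2 CD8 T cell, 2 of 4 dendritic cell and 1 of 4 erythroid or platelet markers. Of the 4 neutrophil markers 0 passed it. The 3 macrophage markers were higher in KO, at a median of 0.29, none past the test. The 2 CD8 T cell and 2 dendritic cell markers were also higher, at medians of 0.06 and 0.09. Of the 2 NK cell markers 1 was higher and 1 lower, and the erythroid or platelet marker was lower. The B cell gene Pax5, the NK cell receptor Ncr1 and the neutrophil genes S100a8 and S100a9 stayed on all 6 arrays under 4.72, which is the lowest mean that a gene could have and still be tested. KO replicate 1 stood apart from the rest, at -41.3 on the first principal component, where the other 5 arrays spanned -14.6 to 26.1. Sex-linked transcripts followed the replicate number. The X-inactivation transcript Xist measured 13.35, 5.94 and 12.59 in KO and 13.08, 5.66 and 12.64 in WT, and the Y-linked Eif2s3y 3.5, 10.41 and 10.05 in KO and 3.44, 10.51 and 10.21 in WT. Both replicate 3 arrays thus carried both, and may not each come from a single mouse. Results are therefore also given without KO replicate 1.

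No gene of the 3 pathways passed limma's test over the 9295 genes tested (adjusted p under 0.05, Benjamini-Hochberg), where 0 genes or 0.0% passed in all. The smallest adjusted p among the 34 members was 0.631, and the largest difference was -0.74 for Idh3a. At an unadjusted limma p under 0.05 there was 1 member, Fh1, or 2.94% of 34, against 7.43% of all genes tested (3.57% higher and 3.86% lower in KO). Leaving out KO replicate 1 left 0 of 34, against 4.93% of all genes. The plain test without moderation gave 0 adjusted calls too, whereas a fit with array weights, which rested mostly on KO replicate 3 and WT replicate 2, called 3581 genes, with 7 of glycolysis, 9 of the TCA cycle and 4 of the pentose phosphate pathway among them. The genotypes were fully apart in 4 members, or 11.8%, against 12.8% of all genes. KO lay above WT in 1 of them and below in 3, against 5.86% and 6.92% of all genes. Of the 34, 12 were higher in KO, against 49.2% of all genes. With 3 against 3 arrays the exact two-sided permutation test cannot give a p below 0.1.

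**Figure D1:**
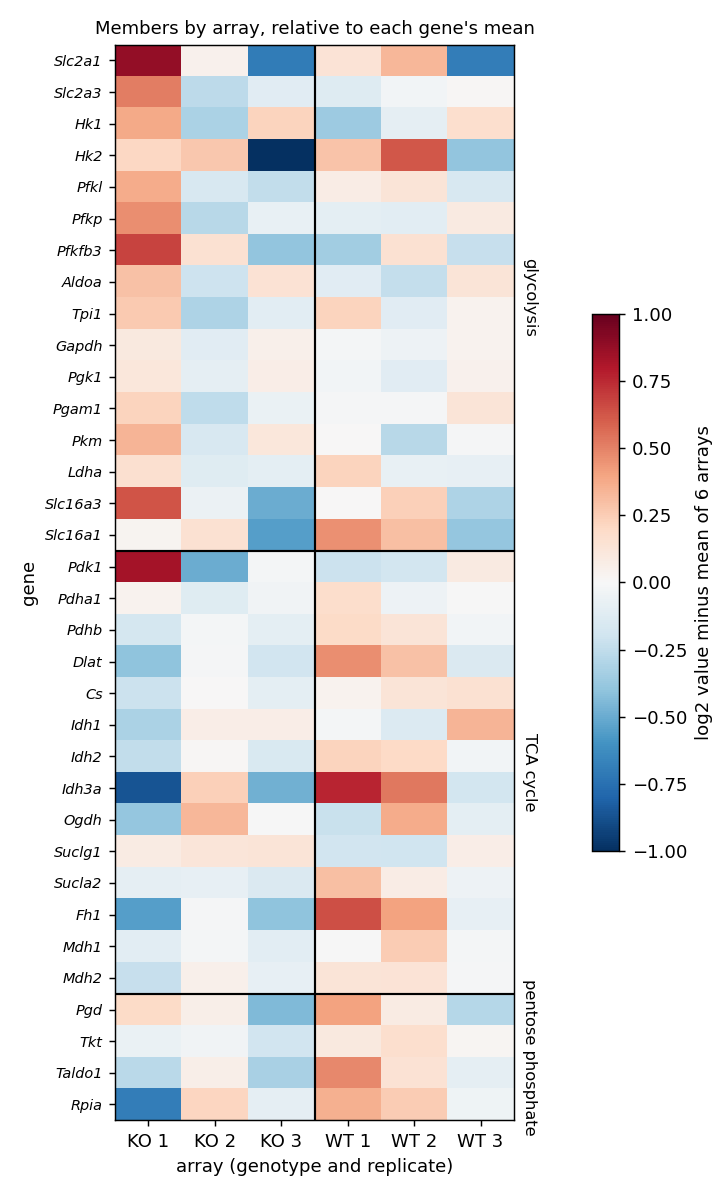
Log2 value of each member (rows, by pathway) on each array (columns, 3 KO then 3 WT) minus the mean of that gene over the 6 arrays. KO replicate 1 holds the highest value of 13 of 16 glycolysis genes and the lowest of 10 of 14 TCA cycle genes.

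Glycolysis transcripts did not differ between the genotypes in a common direction. In KO cells 10 of 16 measured genes were higher and 6 were lower, at a median difference of 0.06, against -0.0035 over all genes tested. Of the 34 probe sets of these genes, several for some genes, 26 were higher in KO and 8 lower. No glycolysis gene reached an unadjusted limma p of 0.05, and in none were the genotypes apart on the brightest probe set. Over all 34 probe sets, 2 had every KO array above every WT array, both of the same gene, Pgk1. The share of such probe sets over the whole array was not counted. What set the arrays apart was KO replicate 1, which held the highest value of 13 of the 16 genes, against 25.8% of all genes tested. The median glycolysis gene was 0.38 higher on that array than on the mean of the other 5. Without it KO was higher in 5 genes and lower in 11, and the median was -0.14.

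The glucose transporters open the pathway. Slc2a1, the main transporter (GLUT1) induced on activation, measured 12.41, 11.58 and 10.84 in KO and 11.67, 11.87 and 10.85 in WT. KO replicate 1 was the highest, both replicate 3 arrays were the lowest and nearly equal, and the genotypes overlapped throughout. The difference was 0.15 ± 0.44 (SE), and -0.25 without KO replicate 1. Slc2a3, which encodes the high-affinity transporter GLUT3, averaged 13.62 ± 0.41 in KO and 13.53 ± 0.07 in WT (SD, n = 3 each). Its excess on KO replicate 1 was wider on dimmer probe sets. The one with the largest difference measured 10.49, 6.67 and 7.32 in KO and 6.97, 7.17 and 7.26 in WT. That probe set differed by 1.03, and by -0.14 without KO replicate 1, so its KO excess lay on that array.

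Hexokinases trap glucose in the cell. Hk2, the inducible hexokinase, measured 10.83, 10.90 and 9.62 in KO and 10.91, 11.25 and 10.23 in WT. Replicate 3 was the lowest of each genotype, and the difference of -0.35 ± 0.41 (SE) became 0.07 without KO replicate 3. Hk1, the constitutive form, measured 11.25, 10.56 and 11.09 in KO and 10.51, 10.78 and 11.04 in WT. Here the replicate 3 arrays were not low, and the difference was 0.19 ± 0.23 (SE), or 0.05 without KO replicate 1. At the next control point, Pfkl and Pfkp, the liver and platelet types of phosphofructokinase, differed by -0.03 and 0.08, with genotypes overlapping. Pfkfb3, which makes the activator fructose 2,6-bisphosphate, measured 9.46, 8.94 and 8.39 in KO and 8.44, 8.94 and 8.56 in WT. Its difference of 0.28 ± 0.28 (SE) was the largest of the pathway on the higher side, and it was 0.02 without KO replicate 1.

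On their brightest probe sets, the measured enzymes from aldolase to pyruvate kinase each spanned at most 0.61 over the 6 arrays. The transporters, hexokinases and phosphofructokinases above them spanned more, though Pfkl only just (0.62). All these later enzymes were among the brightest genes, with means at the 98.8th percentile or above. An effect of that brightness on their spans was not tested. Aldoa, the aldolase, measured 14.28, 13.78 and 14.13 in KO and 13.87, 13.75 and 14.11 in WT. Tpi1, triosephosphate isomerase, measured 13.74, 13.17 and 13.38 in KO and 13.71, 13.37 and 13.52 in WT. Both sets of values overlapped, with differences of 0.15 ± 0.17 and -0.10 ± 0.18 (SE). Gapdh, which carries out the first oxidation, was measured by 3 control probe sets of the array and differed by 0.02. It spanned only 0.21. Pgk1, the first enzyme of glycolysis to yield ATP, measured 14.23, 14.03 and 14.19 in KO and 14.09, 14.01 and 14.16 in WT. On its other 2 probe sets every KO array lay above every WT array, by 0.18 and 0.14 on average, while the genotypes overlapped on its brightest probe set (0.07). Pgam1, phosphoglycerate mutase, differed by -0.07. Pkm, pyruvate kinase, had the smallest p of the pathway and measured 13.32, 12.82 and 13.10 in KO and 12.99, 12.71 and 12.97 in WT. The difference was 0.19 ± 0.17 (SE, limma adjusted p = 0.697), or 0.07 without KO replicate 1, and the arrays overlapped.

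At the end of the pathway, Ldha, which turns pyruvate into lactate, averaged 13.79 ± 0.16 in KO and 13.83 ± 0.18 in WT (SD, n = 3 each), a difference of -0.04 that was smaller than the spread of either genotype. Slc16a3, the lactate exporter MCT4, measured 8.86, 8.18 and 7.74 in KO and 8.24, 8.47 and 7.93 in WT. Slc16a1, the transporter MCT1, measured 10.65, 10.78 and 10.07 in KO and 11.08, 10.93 and 10.24 in WT. For both transporters replicate 3 was the lowest array of its genotype, and the differences were 0.05 ± 0.30 and -0.25 ± 0.28 (SE). Slc2a1, Hk2, Slc16a3 and Slc16a1 were the 4 glycolysis genes with both replicate 3 arrays as the lowest of the 6, or 4 of 16, against 7.27% of all genes tested, a pattern picked after the values were seen.

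**Figure D2:**
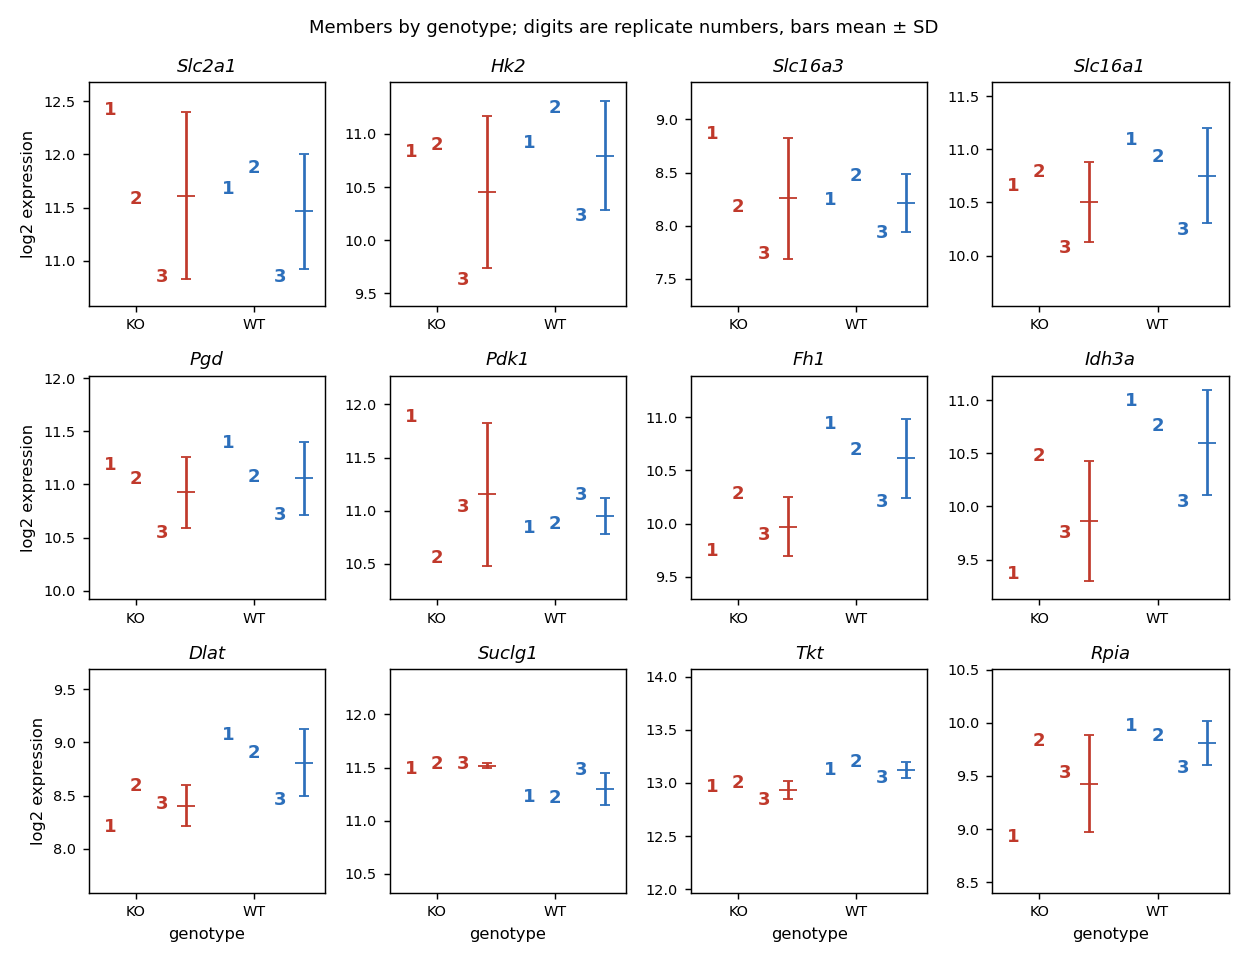
Log2 expression of 12 members by genotype, KO left and WT right. Digits are replicate numbers at their measured values, and bars give mean ± SD (n = 3); every panel spans the same number of log2 units. Replicate 3 is the lowest of both genotypes for Slc2a1, Hk2, Slc16a3, Slc16a1 and Pgd, while Suclg1 and Tkt show genotypes that do not overlap.

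HIF response genes were also high on KO replicate 1. Of 17 further HIF response genes, none of them among the 37, 14 were tested. Their mean deviation from each gene's average was 1.18 on KO replicate 1, -0.51 and -0.07 on KO replicates 2 and 3, and -0.36, -0.21 and -0.04 in WT cells. Of the 14, 13 were highest on KO replicate 1, all 14 were higher in KO, and without that array 5 were higher and 9 lower. Vegfa, the blood vessel growth factor, was at 0.65 and at 0.26 without it. Hif1a, the factor's oxygen-regulated subunit, was the exception. It measured 13.25, 13.32 and 13.41 in KO and 12.78, 12.78 and 12.97 in WT, so every KO array lay above every WT array and KO replicate 1 was the lowest KO array. Its difference was 0.49 ± 0.12 (SE, limma adjusted p = 0.631), and 0.53 without that array. The part of the HIF response in the glycolysis values was not tested.

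The promoters of glycolysis and TCA cycle genes with a wide range over the arrays are printed because HIF binds a short core, A or G followed by CGTG, upstream of many glycolysis genes. They were taken from the 4 glycolysis and the 4 TCA cycle genes with the widest ranges, and the widest 6 of these that RefSeq's promoter table of GRCm38.p6 holds are shown. Each is the 250 bases before the outermost start site in the table, with every ACGTG or GCGTG on either strand (CACGT or CACGC where it lies on the other) in capitals:
Slc2a1, chr4:119108495-119108744, plus strand: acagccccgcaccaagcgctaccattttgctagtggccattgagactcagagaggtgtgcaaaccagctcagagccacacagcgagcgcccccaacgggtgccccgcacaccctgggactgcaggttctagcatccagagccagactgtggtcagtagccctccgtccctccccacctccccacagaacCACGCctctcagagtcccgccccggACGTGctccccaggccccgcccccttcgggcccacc
Slc16a3, chr11:120948817-120949066, plus strand: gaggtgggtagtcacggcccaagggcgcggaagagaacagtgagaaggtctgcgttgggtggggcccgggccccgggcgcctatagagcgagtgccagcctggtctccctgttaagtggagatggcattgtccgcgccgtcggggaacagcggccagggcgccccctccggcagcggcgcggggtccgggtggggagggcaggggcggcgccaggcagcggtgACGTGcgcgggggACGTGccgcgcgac
Pfkfb3, chr2:11553930-11554179, minus strand: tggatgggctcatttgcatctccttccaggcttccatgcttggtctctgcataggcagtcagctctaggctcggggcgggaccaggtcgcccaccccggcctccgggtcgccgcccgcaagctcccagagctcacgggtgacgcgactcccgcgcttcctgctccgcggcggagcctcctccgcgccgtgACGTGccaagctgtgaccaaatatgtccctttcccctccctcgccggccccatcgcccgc
Pdk1, chr2:71872974-71873223, plus strand: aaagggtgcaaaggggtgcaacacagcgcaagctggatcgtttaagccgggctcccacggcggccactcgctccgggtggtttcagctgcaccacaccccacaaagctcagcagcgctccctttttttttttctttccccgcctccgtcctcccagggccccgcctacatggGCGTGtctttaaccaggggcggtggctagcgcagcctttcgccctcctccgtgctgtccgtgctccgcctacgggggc
Hk2, chr6:82774455-82774704, minus strand: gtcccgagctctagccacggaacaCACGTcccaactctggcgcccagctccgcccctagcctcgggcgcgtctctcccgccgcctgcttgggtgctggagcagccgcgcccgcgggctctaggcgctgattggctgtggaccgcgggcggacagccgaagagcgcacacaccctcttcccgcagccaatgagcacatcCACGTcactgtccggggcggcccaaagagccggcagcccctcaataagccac
Fh1, chr1:175625636-175625885, minus strand: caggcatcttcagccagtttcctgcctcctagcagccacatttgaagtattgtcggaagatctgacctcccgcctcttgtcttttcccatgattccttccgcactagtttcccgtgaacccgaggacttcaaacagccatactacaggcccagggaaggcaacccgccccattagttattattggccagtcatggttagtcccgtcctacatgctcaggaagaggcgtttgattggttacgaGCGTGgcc
Slc2a1, Slc16a3 and Hk2 each held 2 such cores, and Pfkfb3, Pdk1 and Fh1 each held 1. The Slc16a3 window lay wholly inside the gene as RefSeq places it, from 120948484 on. Those of Pfkfb3 (gene end 11554071, minus strand) and Pdk1 (gene start 71873215, plus strand) ran partly into the gene. Over the pathways, 20 of 25 glycolysis windows, 15 of 20 TCA cycle windows and 5 of 6 pentose phosphate windows held at least 1. Counted by gene, these were 15 of 17, 10 of 13 and 5 of 5, since several windows can belong to 1 gene, as for Ogdh. No count by gene was made over all genes, so the shares below compare with the counts of windows only. Windows of Gpi1, Eno1 and G6pdx are included here, though not among the windows of genes tested. The share of windows with a core was 55.1% for all genes tested on the arrays and 38.6% for all windows of that length. The median share of G and C was 61.2% in member windows, 59.6% in windows of all genes tested and 52.4% in all windows. The longer sequence CACGTG, which overlaps the core and is bound by Myc, stood in 6 of 51 member windows, or 11.8%, against 8.17% of windows of all genes tested and 6.02% of all windows. These 6 belong to 4 genes, Pfkfb3, Slc16a1, Ldha and Ogdh, since 3 are of Ogdh and some of its windows overlap. A match is a description of these letters only.

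**Figure D3:**
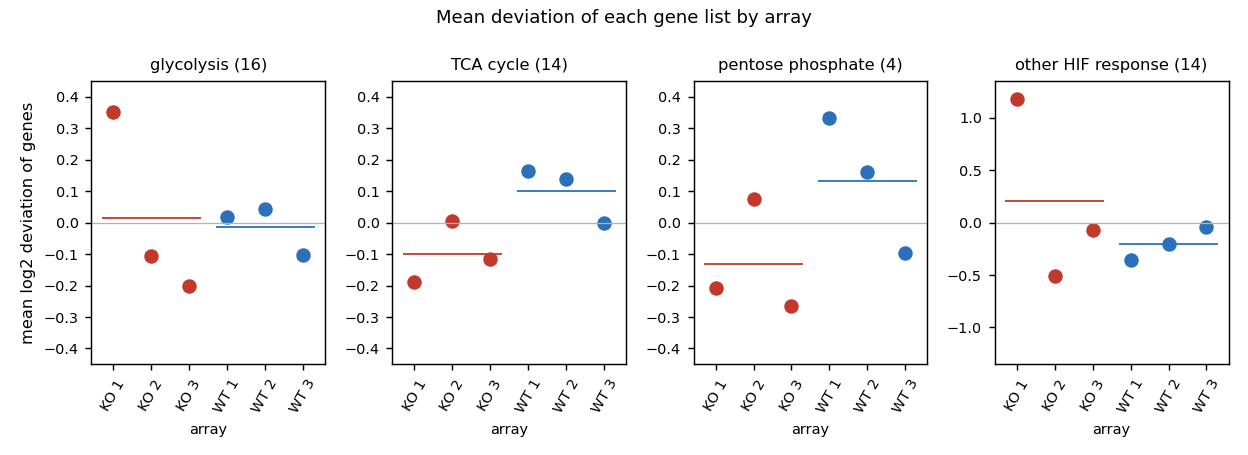
Mean deviation (log2) of the genes of each pathway, and of 14 further HIF response genes, from each gene's mean over the 6 arrays. Points are arrays, KO left (red) and WT right (blue), and lines are genotype means; the HIF panel has a wider axis. KO replicate 1 is the highest array for glycolysis (0.35) and HIF response (1.18) and the lowest for the TCA cycle (-0.19).

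TCA cycle transcripts were lower in KO in 12 of 14 genes, or 85.7%, against 50.8% of all genes tested. The median difference was -0.18, and it lay between -0.23 and -0.15 with any 1 array left out. No gene passed over all genes tested, and at an unadjusted limma p under 0.05 there was 1 of 14. KO replicate 1 held the lowest value of 10 of the 14 genes, against 30.2% of all genes. Without it 11 of 14 were lower, with a median of -0.15. The mean deviation was -0.19, 0.0044 and -0.11 in KO and 0.16, 0.14 and -0.0012 in WT. KO replicate 2 and WT replicate 3 thus lay together between the other arrays of their genotypes.

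The gate into the cycle is pyruvate dehydrogenase. Pdk1, the kinase that shuts it and itself a HIF response gene, measured 11.88, 10.55 and 11.03 in KO and 10.84, 10.87 and 11.15 in WT. It was the only one of the 14 genes that was highest on KO replicate 1. Its difference was 0.20 ± 0.33 (SE), and -0.16 without that array. Dlat, the acetyltransferase subunit of the complex, measured 8.20, 8.59 and 8.42 in KO and 9.07, 8.90 and 8.46 in WT. The KO arrays lay below WT replicates 1 and 2 and around WT replicate 3. The difference was -0.41 ± 0.19 (SE, limma adjusted p = 0.631), and its other 2 probe sets gave -0.58 and -0.41. Pdhb and Pdha1, the subunits of the decarboxylase, differed by -0.19 and -0.08.

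Citrate synthase (Cs), which starts the cycle, measured 10.92, 11.14 and 11.04 in KO and 11.17, 11.26 and 11.29 in WT. Every KO array lay below every WT array, though by a narrow margin (exact permutation p = 0.1). The difference was -0.21 ± 0.11 (SE), and of the other 2 probe sets 1 also kept the genotypes apart. Idh3a, the catalytic subunit of the NAD-dependent isocitrate dehydrogenase, measured 9.36, 10.47 and 9.75 in KO and 10.99, 10.76 and 10.04 in WT. It had the largest difference of the 34 members, -0.74 ± 0.35 (SE, limma adjusted p = 0.631), or -0.49 without KO replicate 1. KO replicate 2 lay above WT replicate 3, so the genotypes overlapped. Its other 2 probe sets gave -0.59 and -0.43.

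The NADP-dependent enzymes sit beside the cycle. Idh2, the mitochondrial form, measured 8.56, 8.82 and 8.65 in KO and 9.03, 9.0 and 8.77 in WT. Only KO replicate 2 reached into the WT range, and the difference was -0.26 ± 0.13 (SE). Idh1, the cytosolic form, differed by -0.12, and by 0.01 without KO replicate 1. Ogdh, the oxoglutarate dehydrogenase, differed by -0.04 ± 0.24 (SE), and the difference was 0.15 without that array. Both differences thus changed sign with that array.

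The subunits of succinyl-CoA ligase differed in opposite directions, neither past the test. Suclg1, the shared alpha subunit, measured 11.49, 11.53 and 11.54 in KO and 11.22, 11.21 and 11.47 in WT. Sucla2, the ATP-forming beta subunit, measured 10.04, 10.05 and 9.99 in KO and 10.44, 10.21 and 10.08 in WT. Every KO array lay above every WT array for Suclg1 and below it for Sucla2, with the KO arrays close together (SD 0.02 and 0.03). The differences were 0.22 ± 0.12 and -0.21 ± 0.13 (SE), with limma adjusted p = 0.631 and 0.638. WT replicate 3 was the nearest to the KO arrays in both genes. Together with Cs these were the 3 of 14 genes without overlap, or 21.4%, against 12.8% of all genes.

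Fh1, the fumarate hydratase, had the smallest p of all members. It measured 9.74, 10.28 and 9.89 in KO and 10.94, 10.69 and 10.21 in WT, with KO replicate 2 just above WT replicate 3. The difference was -0.64 ± 0.23 (SE, limma adjusted p = 0.631, unadjusted p = 0.029), or a KO level 0.64 times that of WT, and it ranged from -0.85 to -0.48 with 1 array left out. Its unadjusted limma p was 0.082 without KO replicate 1, without KO replicate 3 or without WT replicate 2, and 0.093 without WT replicate 1. The malate dehydrogenases Mdh1 (cytosolic) and Mdh2 (mitochondrial), which close the cycle and its shuttle, differed by -0.15 and -0.17. A dimmer Mdh1 probe set, by contrast, had all KO arrays below all WT arrays. All 28 probe sets of the TCA cycle genes but 3, those of Pdk1 and Suclg1, were lower in KO.

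**Figure D4:**
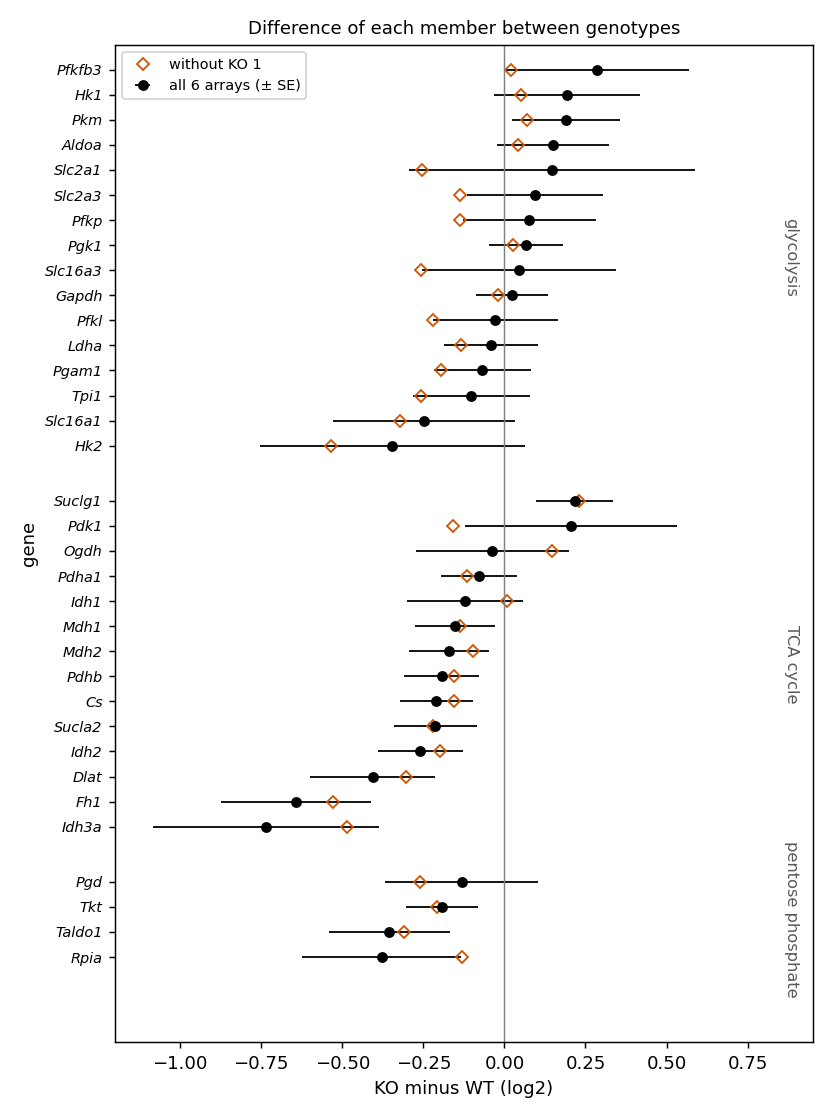
KO minus WT (log2) of the 34 measured members by pathway, from all 6 arrays with the limma SE (filled points with bars) and without KO replicate 1 (open diamonds). The glycolysis diamonds lie to the left of their points, while most TCA cycle and pentose phosphate values lie below 0 either way.

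All 4 measured pentose phosphate genes were lower in KO, with a median difference of -0.27, or -0.23 without KO replicate 1. None passed over all genes tested, and none reached an unadjusted limma p of 0.05. Their 8 probe sets, 4 of them of Pgd and 2 of Tkt, were all lower, and these include the 4 brightest just counted. Pgd, the second NADPH-yielding dehydrogenase of the oxidative branch, measured 11.18, 11.05 and 10.55 in KO and 11.39, 11.07 and 10.71 in WT. Replicate 3 was again the lowest of each genotype, and the difference was -0.13 ± 0.24 (SE). Rpia, which makes ribose 5-phosphate for nucleotides, measured 8.93, 9.83 and 9.52 in KO and 9.97, 9.87 and 9.58 in WT. KO replicate 1 stood far below the other arrays, and the difference of -0.38 ± 0.25 (SE) was -0.13 without it.

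The non-oxidative enzymes return sugars to glycolysis. Tkt, transketolase, measured 12.96, 13.00 and 12.83 in KO and 13.13, 13.20 and 13.05 in WT. Every KO array lay below every WT array on both of its probe sets. The difference was -0.19 ± 0.11 (SE, limma adjusted p = 0.631) and stayed between -0.23 and -0.14 with any 1 array left out. Taldo1, transaldolase, measured 9.95, 10.28 and 9.90 in KO and 10.70, 10.36 and 10.13 in WT. KO replicate 2 lay above WT replicate 3, and the difference was -0.36 ± 0.19 (SE).

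The array order of the TCA cycle and pentose phosphate members was the same as, or close to, that of the main axis of variation of all genes. From lowest to highest, the mean deviation of the TCA cycle genes ordered the arrays as KO replicate 1, KO replicate 3, WT replicate 3, KO replicate 2, WT replicate 2 and WT replicate 1. The first principal component, which held 61.9% of the variance, gave the same order, from -41.3 to 26.1. The pentose phosphate genes had the same order but for the lowest 2 arrays. The 7 further pentose phosphate and ribose genes described below had the order of the component in full. The 19 further genes of the TCA cycle and its inlets did not. Their mean deviation was -0.02, -0.06 and -0.14 in KO and 0.12, 0.07 and 0.02 in WT. Every KO array thus lay below every WT array in that list, with KO replicate 1 the highest KO array. A list of 8 tested Myc and mTOR genes had the order of the component, from -0.21 to 0.15. Myc itself differed by -0.40 and the transferrin receptor gene Tfrc by -0.52. Without KO replicate 1 Myc was at -0.18 and Tfrc at -0.65, and the median of the list was -0.04, against -0.13 with all arrays. The B cell gene Ms4a1 was also high on KO replicate 2 (7.85) and WT replicates 1 and 2 (8.02 and 8.22) and low on the rest (6.39 to 6.55), and was picked after its values were seen. Cd79a was also highest on those 3 arrays, whereas Cd79b was highest on KO replicate 1 and Blk lowest on KO replicate 2. Of these 4 tested B cell markers, 2 were higher and 2 lower in KO. Over 5 B cell markers the summed linear level ranged from 326 to 511 in KO and from 310 to 610 in WT. The part of these in the pathway values was not tested. Fewer cells of a type and less RNA per cell cannot be told apart in such bulk samples. The log2 3′ over 5′ signal of the Gapdh control probe sets, a sign of RNA integrity, spanned -0.05 to -0.02 in KO and -0.04 to -0.02 in WT. That of the Actb control probe sets spanned 0.32 to 0.36 in KO and 0.28 to 0.37 in WT. The genotypes overlapped in both, and Gapdh is itself a member.

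Other genes of the same pathways, listed apart from the members, were counted likewise. The members' skew on KO replicate 1 did not recur in the glycolysis and TCA cycle lists. That array was highest in 8 and lowest in 7 of 22 further glycolysis genes. Of 19 further TCA cycle genes it was highest in 3 and lowest in 6. Over all genes tested it was highest in 25.8% and lowest in 30.2%. In KO cells 12 of 22 further glycolysis genes tested were higher and 10 were lower. Their median difference was 0.03, and 0 passed the test. On the lower side Bpgm, which makes 2,3-bisphosphoglycerate, differed by -0.41 and Pgm2, a phosphoglucomutase, by -0.38. In both genes every KO array lay below every WT array, and the unadjusted limma p was 0.020 for Bpgm and 0.038 for Pgm2, or 0.048 and 0.067 without KO replicate 1. On the higher side Slc2a9, a urate and sugar transporter, differed by 0.46 and Eno2, the neuronal enolase, by 0.50, each with overlap. Without KO replicate 1 these were 0.26 and 0.15. Pfkfb2 and Fbp2, named after their values were seen, had every KO array above every WT array, at differences of 0.11 and 0.09. Both were dim, at means of 5.43 and 4.82 in KO, where 4.72 was the lowest mean tested. Ldhb, a lactate dehydrogenase named likewise, had every KO array below every WT array, at -0.25, or -0.16 without KO replicate 1. In all, 5 of the 22 genes, or 22.7%, kept the genotypes apart, against 12.8% of all genes tested. Of 19 further genes of the TCA cycle and its inlets, 14 were lower and 5 higher, with a median of -0.15 and 0 past the test. Got2, the mitochondrial aspartate aminotransferase, differed by -0.38 (-0.24 without KO replicate 1), with genotypes apart, and Mpc1, a subunit of the mitochondrial pyruvate carrier, by -0.30. Pdk2 and Sdhc, a kinase of pyruvate dehydrogenase and a succinate dehydrogenase subunit, were at 0.23 and 0.06, or 0.45 and 0.09 without KO replicate 1. Of 7 further pentose phosphate and ribose genes, 5 were lower and 2 higher, with a median of -0.22 and 0 past the test. Prps1, which makes the nucleotide precursor PRPP, differed by -0.85 and by -0.45 without KO replicate 1, and Rpe, the ribulose phosphate epimerase, by -0.33. H6pd and Rbks were at 0.12 and 0.14, or 0.18 and 0.09 without that array.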

How the data were processed

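Affymetrix arrays measured RNA of 6 samples, 3 KO and 3 WT, and the labels gave the groups. The deposited values are log2 expression; RMA and affy are the tools named in the submitters' processing notes, and their versions and settings are not given. RMA summaries compress differences near background, and no detection calls were used. Probe sets (22690, of which 64 are controls) were named through GEO's platform annotation: 20393 had 1 gene symbol, 691 several and 1606 none. Control probe sets with a symbol stayed in, since only these measure Gapdh alone. The brightest probe set stood for each gene, and the dimmest 25% of 12394 genes were left out, which left 9295. All 34 measured members passed this filter. For each gene KO was set against WT by lmFit and eBayes of limma 3.58.1, under R 4.3.3 (two-sided, Benjamini-Hochberg), all probe sets were fitted likewise for the other probe sets of a member, and single values were put to exact permutation tests. On simulated data with 200 changed genes of 9295, limma recovered 51.5%, 88.5% and 94% at changes of 1, 2 and 3 log2 units. False calls numbered 5, 15 and 13. The simulated noise was independent between genes and arrays, with no outlying array and no axis shared by the genes. Changes below 1 log2 unit were not simulated. The shares recovered therefore do not tell how many changes of the members' size these arrays would show. The array number limits the precision.

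Besides Mir155hg, genes given in full were all pentose phosphate genes, the 8 glycolysis and 6 TCA cycle genes with the smallest p, and the 4 of each with the widest range; of other pathway lists, the 2 smallest p per direction. Genes beyond this were chosen after their values were seen. Members and lists were chosen with earlier results of these data known. Sequences are from RefSeq tables of GRCm38.p6, where 35 of the 37 genes had a promoter. Alternatives tried were a block for the replicate number, leaving out each array in turn, median centring, a further quantile normalization, no filter or a 50% filter, the mean of all probe sets, trend and robust moderation, array weights and no moderation. Leaving out both replicate 3 arrays was added after the data had been seen.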

Additional observations from a re-analysis of the deposited data

How the results depend on the processing

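With array weights (statmod 1.5.0) the counts were of another kind. The weights were 5.55 for KO replicate 3 and 5.05 for WT replicate 2, and 0.27 to 0.58 for the rest, so this fit largely compares 2 arrays. It called 3581 genes (4712 unadjusted), among them 7 glycolysis (8 unadjusted), 9 TCA cycle (10 unadjusted) and 4 pentose phosphate genes (4 unadjusted), and turned Slc2a1 to -0.81, Slc2a3 to -0.063, Pfkfb3 to -0.38, Slc16a3 to -0.59 and Idh1 to 0.14. Under all the other alternatives 0 genes passed. With 1 array left out, the unadjusted count over all genes lay between 276 (WT replicate 1 left out) and 1540 (KO replicate 2 left out), that of the TCA cycle from 0 to 3, that of the pentose phosphate genes from 0 to 1, and the glycolysis median from -0.14 (without KO replicate 1) to 0.11. Of these 6 fits, Fh1 kept an unadjusted p under 0.05 in those without KO replicate 2 and without WT replicate 3. The difference changed sign in 14 members. Their ranges were -0.25 to 0.53 (Slc2a1), -0.14 to 0.25 (Slc2a3), -0.63 to 0.068 (Hk2), -0.22 to 0.089 (Pfkl), -0.14 to 0.24 (Pfkp), -0.26 to 0.029 (Tpi1), -0.019 to 0.084 (Gapdh), -0.19 to 0.042 (Pgam1), -0.13 to 0.058 (Ldha), -0.26 to 0.31 (Slc16a3), -0.16 to 0.51 (Pdk1), -0.22 to 0.016 (Idh1), -0.21 to 0.15 (Ogdh) and -0.31 to 0.057 (Pgd). Without both replicate 3 arrays, chosen after seeing the data, the unadjusted count was 445 over all genes and 2 in the TCA cycle, and Pfkl was at 0.0027. Without moderation 1 pentose phosphate gene was past unadjusted. Apart from the cases named, the alternatives kept each member's sign, and the cause of each move was not tested.

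The replicate number as a block gave 0 calls and an unadjusted count of 918, against 691 without it. Deviations of same-numbered arrays correlated at -0.04, 0.64 and 0.40 over the tested genes, so not every pair deviated together, and KO replicate 1 correlated best with WT replicate 3. Sex-linked transcripts did match by number, the labels name no shared litter or day, and whether the numbers mark one was not tested. Few arrays and values close to background limit what could be detected.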

Other observations

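Me2, Got1 and Pgm1 were picked after their values were seen, as genes of the wider pathway lists that were highest on KO replicate 1. Me2, a mitochondrial malic enzyme, measured 10.75, 9.30 and 9.79 in KO and 10.04, 9.71 and 10.18 in WT. Got1, the cytosolic aspartate aminotransferase, measured 11.09, 9.93 and 9.70 in KO and 10.72, 10.07 and 10.20 in WT. Without KO replicate 1 these differed by -0.43 and -0.52, against -0.03 and -0.09 with all arrays. Pgm1, a phosphoglucomutase, measured 11.50, 9.90 and 10.61 in KO and 10.31, 10.23 and 10.79 in WT, and differed by 0.22, or by -0.19 without that array.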
